A study of Mus musculus with 8 samples.

Results

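The comparison described here sets 2 RNA-seq libraries of lncSmad7-/- E14 mouse embryonic stem cells labelled Smad7 transfected against 2 libraries of the same knockout cells labelled untreated. These are 4 of the 8 samples of the series, chosen by label from the columns KO_Smad7_1, KO_Smad7_2, KO1 and KO2 of the deposited gene count table. E14 is a line of strain 129/Ola, cultured on gelatin in medium with serum and LIF, the cytokine that keeps these cells pluripotent. Both groups are labelled lncSmad7-/-, a knockout of a long noncoding RNA gene, and the sample descriptions put the transfected cells at 24 hours. The 2 libraries of untransfected wild-type E14 cells entered the fit to help estimate the spread, and their levels are given as values without a test. The series also has samples labelled lncSmad7-transfected. No column used here was matched to them, with a doubt over column names that is given under the processing.

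No mock-transfected control stands in this pair. The effect of the introduced Smad7 and the effect of transfection itself therefore cannot be told apart in any value below. The same holds for every other property that moved with the transfected group: these libraries were smaller and detected more genes, with a larger mitochondrial share of counts. The sources used here do not give the vector, the transfection reagent or the number of knockout clones. Replicates are described by the submitters as biological, with nothing on whether they came from separate cultures or clones, so each p-value rests on the spread among these libraries, which may be technical.

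Smad7 is an inhibitory Smad. Ligands of the TGF-beta superfamily bind paired type I and type II receptors, which phosphorylate receptor Smads (Smad2 and Smad3 for TGF-beta, activin and Nodal, and Smad1, Smad5 and Smad9 for BMPs). These join Smad4, enter the nucleus and switch target genes, among them Smad7, whose protein blocks the receptors and brings ubiquitin ligases such as Smurf1 and Smurf2 to them. In mouse embryonic stem cells cultured in serum and LIF, BMP signals through Id proteins are known to help hold the pluripotent state. The series title connects lncSmad7 with recruitment of the histone acetyltransferase p300, the product of Ep300.

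Levels are given in CPM, the reads of a gene scaled to a fixed total per library, with library sizes normalised by the TMM method. Rose and fell mean an adjusted p under 0.05 by edgeR's quasi-likelihood test with Benjamini-Hochberg adjustment over 17342 genes tested, and SE is the standard error of the log2 fold. A change given as a bare number is a log2 fold of the labelled Smad7 over the knockout libraries. Gene counts summed to 20159897 and 19455030 in the knockout libraries and to 13392941 and 15972163 in the libraries labelled Smad7-transfected (below, the labelled Smad7 libraries). The number of genes with at least 1 count was 24849 and 24777 in the knockout against 26358 and 27359 in the labelled Smad7 libraries. Mitochondrially encoded genes took 1.40% and 1.37% of counts against 2.48% and 2.33%. The part of depth and of the mitochondrial share in the results was not tested, apart from a repeat on counts thinned to equal depth, which called 6062 genes higher and 5905 lower.

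Smad7, the gene the label says was introduced, stood at 75.5 and 69.6 CPM in the knockout and 93.8 and 99.4 CPM in the labelled Smad7 libraries. The groups did not overlap, and Smad7 rose (log2 fold 0.41, SE 0.048, edgeR's quasi-likelihood test, Benjamini-Hochberg adjusted p = 3.2e-14), and the wild-type libraries had 97.6 and 97.7 CPM. A gene-level count does not separate introduced from endogenous Smad7 RNA, and with a rise of this size the libraries are called by their label throughout. The noncoding RNA lncSmad7, which the label gives as knocked out in both groups, gave 7.14 and 5.52 CPM in the knockout and 10.8 and 11.2 CPM in the labelled Smad7 libraries, and 13.98 and 12.4 CPM in wild type. It rose as well (log2 fold 0.79, SE 0.13), and the counts do not say from which part of the gene these reads came.

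Most genes with enough counts differed between the groups. In all, 6558 genes rose, which is 37.8% of those tested, and 6387 fell, which is 36.8%. At 2-fold or more the balance shifted: 3279 genes rose (18.9%) and 1188 fell (6.85%). These 4 percentages are the background given for every list below, but the shares differ with level. In the highest decile of mean CPM 266 of 1390 protein-coding genes rose and 1044 fell (75.1%). In the lowest 791 of 1390 rose and 47 fell, and low genes could pass the filter through the group where they are high. The lists were not compared with genes of matched level. Some genes belong to several lists, so the counts of different lists are not independent. The balance depends on scaling, because scaling by library size alone moved the median log2 fold of all genes from 0.04 to 0.29 and called 8609 genes higher and 4492 lower. At 2-fold or more that scaling called 4287 genes higher and 587 lower. A fit with offsets for the GC content and length of transcripts (below, the offsets) called 6450 genes higher and 6232 lower. Where the offsets moved the fold of a named gene by more than 1.5 times, the value under them follows in the text.

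Markers of embryonic stem cells were present in every library. Pou5f1, the central pluripotency factor, had 1052 and 1085 CPM in the knockout and 569 and 586 CPM in the labelled Smad7 libraries. Of 15 listed mesoderm genes 10 passed the filter, of which 5 rose and 0 fell. Of 14 listed fibroblast and feeder genes 5 passed it, of which 4 rose. Low genes could pass it through the group where they are high. Summed over the fibroblast list, levels were 1443 to 1504 CPM in the knockout and 1822 to 1909 CPM in the labelled Smad7 libraries, of which Fn1 and Vim, a matrix and a filament gene that these cells also express, gave nearly all. The call of Vim (0.08) was lost in 5 of the 6 fits that left out 1 library. Col3a1, Lum, Fap and Twist2 were at 0 in all 4 libraries, and Col1a1, a defining collagen, had 0.765 and 0.894 CPM in the knockout and 2.45 and 1.95 CPM in the labelled Smad7 libraries. The blood and macrophage list summed to 20.5 to 20.6 CPM in the knockout and 34.8 to 38.7 CPM in the labelled Smad7 libraries, almost all of it Cd68, a lysosomal gene, with Adgre1 and Hbb-bs at 0 in all 4 libraries. The part of such cells in any result was not tested. In bulk RNA, fewer cells that express a gene and less RNA of that gene per cell cannot be told apart.

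Among the genes with the greatest rises were several of the nervous system and the cell surface. Kif1a, a kinesin that carries synaptic vesicle precursors, went from 7.09 and 9.94 CPM to 77.9 and 85.2 CPM (log2 fold 3.27, SE 0.080, edgeR's quasi-likelihood test, Benjamini-Hochberg adjusted p = 1.7e-62). Cd109, a membrane protein that binds TGF-beta, went from 1.68 and 1.79 CPM to 16.3 and 14.5 CPM (log2 fold 3.14, SE 0.16). For both genes every labelled Smad7 library lay above wild type as well. Lying above both knockout libraries was a condition for picking the greatest rises. Itga4, the alpha-4 integrin chain, rose by 3.16 (2.38 with the offsets), Svop, a synaptic vesicle protein, by 3.55, and Nbeal1, a BEACH-domain protein, by 3.33 (1.73 with the offsets). Ankrd12, an ankyrin-repeat protein, rose by 3.18 (2.17 with the offsets) and Rnf128, a ubiquitin ligase, by 3.34.

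The greatest falls included a growth factor and kinases downstream of growth signals. Fgf17, a ligand of the FGF family, dropped from 25.03 and 27.4 CPM to 3.87 and 4.22 CPM (log2 fold −2.69, SE 0.12, edgeR's quasi-likelihood test, Benjamini-Hochberg adjusted p = 2.6e-49). Sgk1, a serum-induced kinase, dropped from 203 and 201 CPM to 49.9 and 49.1 CPM (log2 fold −2.03, SE 0.046), and the wild-type libraries had 420.1 and 417 CPM. Pim1, a kinase induced by LIF through Stat3, had a log2 fold of −2.07 and Ppa1, the cytosolic pyrophosphatase, one of −1.68. Calcoco2, known in human cells as the autophagy receptor NDP52, fell (−2.15), as did Nr1d1, the circadian repressor Rev-erb-alpha (−1.75), and En2, a homeobox gene of the midbrain (−1.73). Lncenc1, a noncoding RNA abundant in embryonic stem cells, fell with them (−2.10). The greatest rises and falls were picked only from genes whose libraries did not overlap between the groups, so that separation is no added support.

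**Figure D1:**
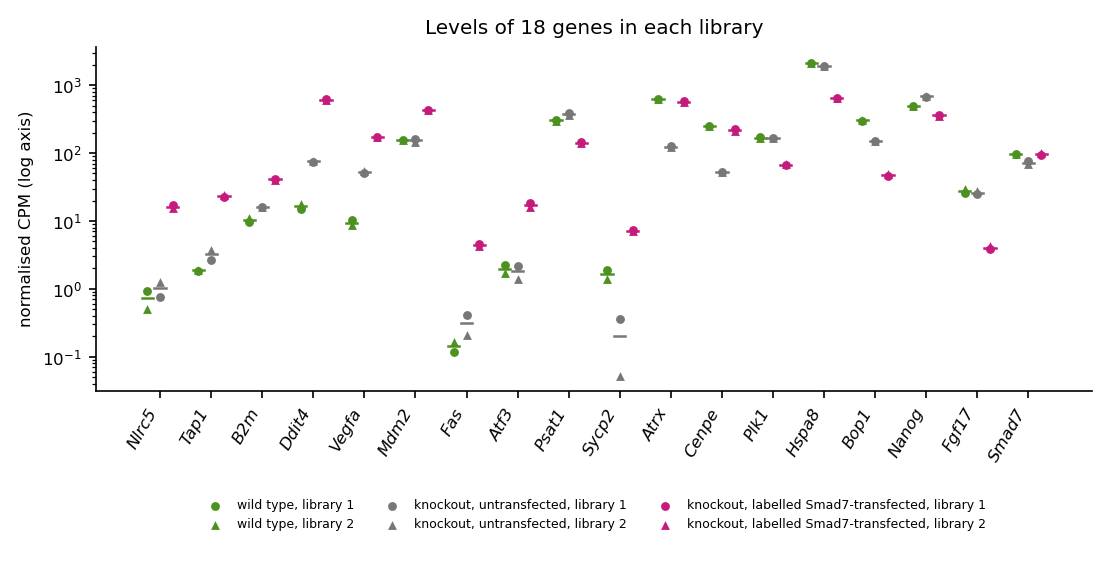
Normalised CPM on a log axis for 18 genes in each of the 6 libraries, with 1 point per library for wild type, knockout and labelled Smad7-transfected knockout. Nlrc5, Ddit4 and Atf3 lie far above the knockout in both labelled Smad7 libraries, Fgf17 lies far below, and Smad7 itself moved little.

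Within the TGF-beta superfamily pathway, receptors moved up more often than down. Of 14 receptors and coreceptors measured, 11 rose and 2 fell, with a median log2 fold of 0.58 against 0.04 over all genes. Bmpr2, the type II BMP receptor, went from 21.7 and 18.6 CPM to 78.4 and 76.2 CPM (log2 fold 1.94, SE 0.063, 1.01 with the offsets), and wild type had 64.997 and 61.8 CPM. Tgfbr2, the type II TGF-beta receptor, went from 3.77 and 3.05 CPM to 8.002 and 8.38 CPM (log2 fold 1.26, SE 0.16). Both labelled Smad7 libraries were above both knockout libraries for these receptors. Tgfbr3, the coreceptor betaglycan, rose by 2.54, Acvrl1, a type I receptor for BMP9 known from endothelium, by 1.39, and Acvr2a, an activin type II receptor, by 1.23 (0.49 with the offsets). Eng, the coreceptor endoglin, rose by 0.77. Bambi, a pseudoreceptor that dampens the signal, fell (−0.76), and Tdgf1, the Nodal coreceptor Cripto, did not pass the test (0.05). Tdgf1 passed it as higher under library size scaling (0.29), with the offsets (0.22) and with a filter of 1 CPM in 4 libraries (0.15).

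Ligands and secreted antagonists showed 11 rises and 3 falls among 19 measured (median 0.45). Bmp7, a BMP of many epithelia, rose by 1.84. Nodal, the ligand that patterns the early embryo, went from 78.2 and 78.1 CPM to 124 and 125 CPM (log2 fold 0.67, SE 0.046). Gdf3, a Nodal-related factor of these cells, fell, with 104 and 99.97 CPM in the knockout and 49.9 and 54.1 CPM in the labelled Smad7 libraries (log2 fold −0.97, SE 0.050). Inhbb, the activin B chain, had a log2 fold of −0.71 and Bmp4 one of −0.59. The BMP ligands Bmp7 and Bmp4 thus moved in opposite directions.

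The Smads themselves changed by small amounts apart from Smad9, with 3 rises and 4 falls among 8 measured. Smad9, a receptor Smad of the BMP branch, went from 0.459 and 0.316 CPM to 1.61 and 0.703 CPM (log2 fold 1.51, SE 0.44). Without labelled Smad7 replicate 1 its log2 fold was 0.84 and did not pass the test, nor did it pass with DESeq2 (1.58). Smad6, the inhibitory Smad of that branch, had 6.37 and 7.26 CPM in the knockout and 4.19 and 3.84 CPM in the labelled Smad7 libraries (log2 fold −0.77, SE 0.16), so the 2 inhibitory Smads moved in opposite directions. Smad4, the common partner, had a log2 fold of −0.38 and Smad3 one of −0.29, which did not pass the test under library size scaling (−0.04). Among 15 ubiquitin ligases, phosphatases and deubiquitinases that act on Smads, 8 rose and 5 fell. Wwp1, a HECT ligase that binds Smad7, rose by 1.37 (0.53 with the offsets) and Usp11, a deubiquitinase of the type I receptor, by 0.70. Stub1, a chaperone-linked ligase, fell (−0.79), Usp4, another deubiquitinase of that receptor, fell (−0.59), and Smurf2 fell by little (−0.35), with −0.10 and no call under library size scaling. The medians of the Smad list and of this list changed sign under another scaling or under the offsets, so no direction is given for either.

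Targets of Nodal, activin and TGF-beta did not move as a block. Of 19 measured, 12 rose and 5 fell, with a median of 0.41. Skil, which encodes the feedback repressor SnoN, rose by 0.94 (0.30 with the offsets). Tgif1, a corepressor of Smads, fell (−0.70). The matricellular genes Ccn1 and Ccn2, both known to answer TGF-beta and Yap, went in opposite directions, with 1.34 for Ccn1 and −0.71 for Ccn2.

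Among the BMP targets 3 of 15 rose and 7 fell. Id1, the classical BMP target of embryonic stem cells, had 145 and 148 CPM in the knockout and 151 and 151 CPM in the labelled Smad7 libraries (log2 fold 0.05, SE 0.040) and did not pass the test. Id2 (0.07) did not pass it either, though both passed it as higher with the offsets (0.43 and 0.24) and under library size scaling (0.29 and 0.32). Id4 fell (−0.74). Dlx3, a homeobox gene of surface ectoderm, rose by 3.16. Dusp9, a phosphatase that acts on Erk, fell (−0.56). The median of the list was −0.25 and crossed 0 under other settings.

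Genes of the pluripotent state were lower in the labelled Smad7 libraries. Of 16 core pluripotency genes, 2 rose and 13 fell (median −0.66). Of 20 genes of the naive state, 3 rose and 14 fell (median −0.52), and of 17 genes of the formative and primed states 4 rose and 11 fell (median −0.31). Foxd3, a forkhead factor needed for self-renewal, had 36.8 and 37.3 CPM in the knockout and 11.2 and 9.84 CPM in the labelled Smad7 libraries (log2 fold −1.82, SE 0.086). Foxd3 is counted in both the core and the formative list. Trim28, a corepressor that silences endogenous retroviruses, had 2333 and 2342 CPM in the knockout and 864 and 876 CPM in the labelled Smad7 libraries (log2 fold −1.43, SE 0.034). The fall was of similar size for Utf1, a chromatin factor of embryonic stem cells (−1.29), and Nr0b1, an orphan receptor that binds Nanog (−1.15). Dppa4 (−1.09) and the RNA-binding protein gene Lin28a (−1.06) fell in the same range.

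In the naive list, Gbx2, a target of LIF and Stat3, fell (−1.42), and Klf2 (−1.09), Prdm14 (−0.86) and Esrrb (−0.62) fell by less. Nanog went from 674 and 692 CPM to 363 and 355 CPM (log2 fold −0.93, SE 0.036), and wild type had 494 and 495 CPM. The libraries of the groups did not overlap for any of these genes, but the share of all genes without overlap was not counted. In the formative list, Dnmt3b, a DNA methyltransferase that rises when cells leave the naive state, fell (−1.67), and so did Tcf15, a bHLH factor of that transition (−1.50, −0.91 with the offsets). Cdh2, the gene of N-cadherin, rose by 1.27.

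Single lineage genes changed, mostly from low levels. The endoderm list had 10 rises and 2 falls among 17 measured (median 0.63), and summed to 1099 to 1137 CPM in the knockout and 1077 to 1092 CPM in the labelled Smad7 libraries, mostly from its laminin genes. Gata6, the primitive endoderm factor, went from 0.255 and 0.210 CPM to 1.87 and 1.57 CPM (log2 fold 2.84, SE 0.42). In the mesoderm and primitive streak list Wnt3, a ligand of streak formation, went from 0.153 and 0.210 CPM to 2.26 and 2.22 CPM (log2 fold 3.58, SE 0.43). The neuroectoderm list had 5 rises and 4 falls among 10. Neurod1, a factor of differentiating neurons, rose by 2.50, while the progenitor factors Sox1 (−1.39) and Pax6 (−1.23) fell. Summed over that list the levels were 585 to 604 CPM in the knockout and 521 to 522 CPM in the labelled Smad7 libraries.

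Epithelial and adhesion genes were mixed as well. Of 8 keratins measured, 3 rose and 2 fell. Krt19 went from 1.58 and 2.31 CPM to 19.3 and 20.8 CPM (log2 fold 3.37, SE 0.14), while Krt17 fell (−1.63). Among 25 integrins and basement membrane genes 15 rose, led by Itga8 (2.92), Lama3 (2.07) and Itgb4 (1.91), which encode chains of receptors and laminin, and 7 fell, led by Itgb3 (−1.80). Among 16 genes of actin and its SRF pathway, 5 rose and 9 fell. Srf, which encodes the serum response factor, fell (−1.15).

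Genes of the protein synthesis apparatus fell almost throughout. Of 45 ribosome biogenesis genes, 0 rose and 44 fell, 27 of them by 2-fold or more, with a median log2 fold of −1.10. Bop1, a factor of large-subunit maturation, had 149.9 and 151 CPM in the knockout and 45.6 and 48.6 CPM in the labelled Smad7 libraries (log2 fold −1.68, SE 0.047, edgeR's quasi-likelihood test, Benjamini-Hochberg adjusted p = 3.5e-71). Nop2, an rRNA methyltransferase, had a log2 fold of −1.64 and the nucleolar gene Nop16 one of −1.61. Summed over the list, levels were 15288 to 15472 CPM in the knockout and 8962 to 8986 CPM in the labelled Smad7 libraries, with 27811 to 27874 CPM in wild type. The 3 groups did not overlap in these sums, with wild type highest and the labelled Smad7 libraries lowest.

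Other parts of the translation apparatus moved the same way. Cytosolic ribosomal protein genes fell in 77 of 78 cases (median −0.84) and none rose by edgeR's quasi-likelihood test. Their summed level was 53714 to 56450.2 CPM in the knockout and 30795 to 31161 CPM in the labelled Smad7 libraries. Many have processed pseudogenes, so the split of reads among copies is uncertain, and with the offsets the median of the list was −0.48. All 20 cytosolic aminoacyl-tRNA synthetases fell (median −0.87), among them Farsb, a phenylalanine enzyme subunit (−1.26). All 76 mitochondrial ribosomal proteins fell too (median −0.80), Mrpl12 the most (−1.51). Of 37 translation factors 34 fell and 1 rose (median −0.74), with Eif5a (−1.33) and Eif3b (−1.32) in front.

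Genes of protein folding and turnover fell as well. Among 26 heat shock proteins and chaperonins 21 fell and 4 rose (median −0.90). Hspa8, the constitutive Hsp70, had 1908 and 1895 CPM in the knockout and 645 and 654 CPM in the labelled Smad7 libraries (log2 fold −1.55, SE 0.035). Hsph1, its nucleotide exchange factor, fell further (−2.00), and the chaperonin subunits Cct6a (−1.42) and Cct3 (−1.31) fell with them. Proteasome subunits fell in 35 of 37 cases and rose in 2 (median −0.89), and Psmb5, a catalytic subunit, had a log2 fold of −1.199.

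Nuclear-encoded and mitochondrially encoded respiratory genes went apart. Of 76 nuclear genes of the respiratory chain and ATP synthase, 73 fell and 0 rose by edgeR's quasi-likelihood test (median −0.76). Atp5g1, a subunit of the ATP synthase ring, had 93.7 and 98.4 CPM in the knockout and 40.98 and 40.2 CPM in the labelled Smad7 libraries (log2 fold −1.24, SE 0.053). All 7 mitochondrially encoded messenger RNAs measured rose, with a median of 0.59, but with the offsets the median of that list was −0.17. The other 6 of the 13 in the list (mt-Nd3, mt-Nd4l, mt-Co2, mt-Co3, mt-Atp6 and mt-Atp8) were listed at 0 in all 4 libraries, so the list covers only part of the mitochondrial messages. The summed level was 13953 to 14366 CPM in the knockout and 20070.5 to 21389 CPM in the labelled Smad7 libraries.

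**Figure D2:**
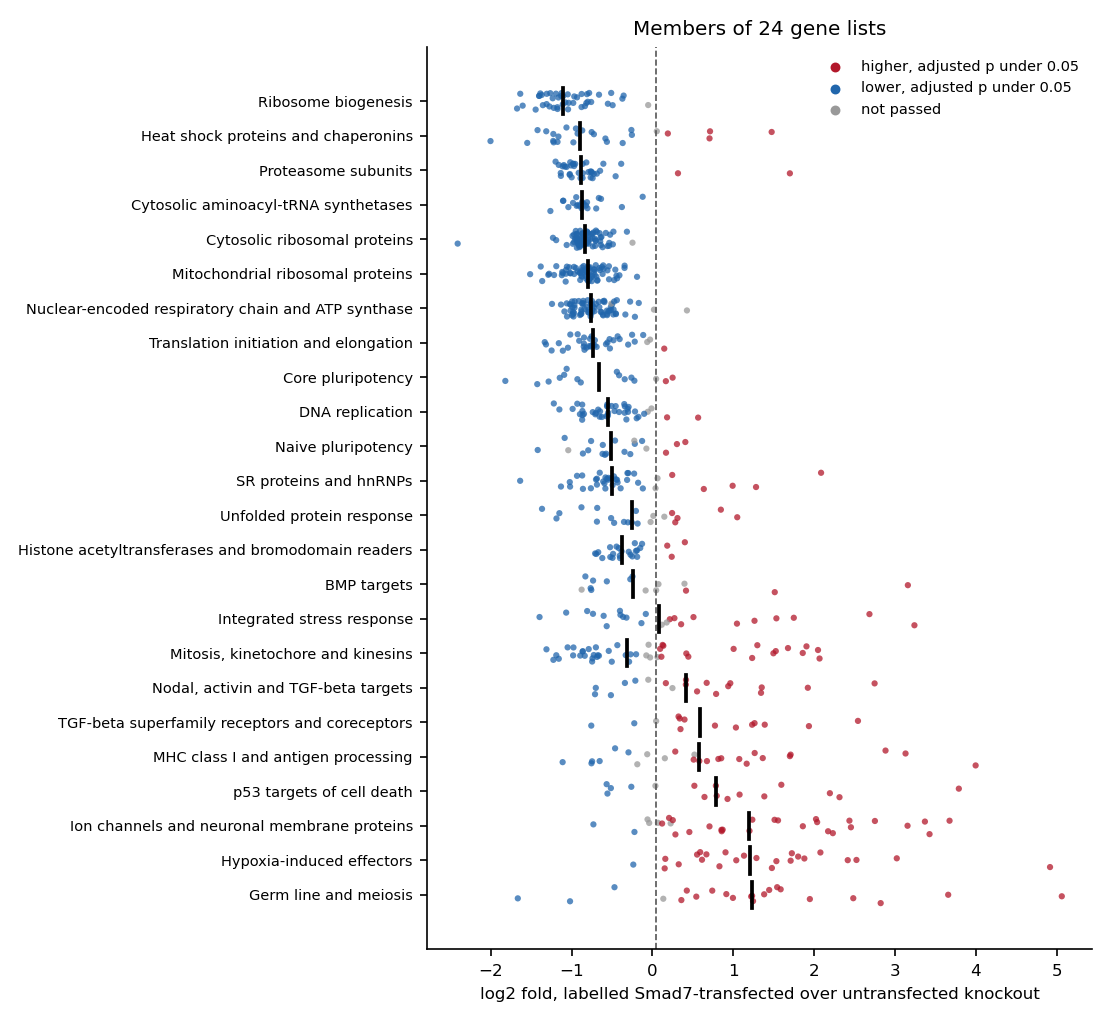
Log2 fold of the members of 24 gene lists in the labelled Smad7-transfected against the untransfected knockout, 1 point per gene and a bar at each median, with a dashed line at the median of all genes (0.04). Ribosome biogenesis, chaperones and proteasome subunits sit almost wholly below 0, and hypoxia-induced effectors and germ line genes mostly above.

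Nearly all members of a list of effectors known to be induced by low oxygen rose, while genes of glycolysis and glucose uptake, given below, were divided. Hypoxia-inducible factor, a dimer whose alpha subunit is degraded when oxygen is plentiful, binds a short core with the letters ACGTG. Of 24 effectors measured, 23 rose and 1 fell (median 1.21). The member that fell was Mxi1, a Myc antagonist (−0.24), which stood at 0.011 under library size scaling. Promoter windows of 4 members are printed here with the core, on either strand, in capitals, because 11 of the 17 members with a RefSeq promoter on GRCm38.p6 hold it in the 250 bases before the start. The share is 64.7%, against 24.7% of 11826 tested genes with a promoter, 22.5% of genes that rose and 23.9% of genes that fell by 2-fold or more. These letters are not particular to the hypoxia genes: 7 of 10 formative and primed pluripotency promoters (70.0%) and 15 of 28 promoters of translation factors (53.6%) hold them too. These windows are at chr10:59951923-59951987 (minus strand) for Ddit4, chr2:11502108-11502172 (minus strand) for Pfkfb3, chr7:138909579-138909643 (minus strand) for Bnip3 and chr10:59323250-59323295 (plus strand) for P4ha1. In Pfkfb3 and Bnip3 at least 1 core lies within the longer palindrome CACGTG.
Ddit4: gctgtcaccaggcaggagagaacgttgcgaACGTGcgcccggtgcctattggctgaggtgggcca
Pfkfb3: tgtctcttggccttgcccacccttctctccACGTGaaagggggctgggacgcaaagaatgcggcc
Bnip3: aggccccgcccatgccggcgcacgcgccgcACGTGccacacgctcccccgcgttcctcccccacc
P4ha1: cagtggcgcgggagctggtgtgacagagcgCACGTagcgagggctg

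Ddit4, an inhibitor of the growth kinase mTORC1, went from 73.9 and 77.2 CPM to 617 and 610.5 CPM (log2 fold 3.02, SE 0.041, edgeR's quasi-likelihood test, Benjamini-Hochberg adjusted p = 1.3e-113). Both labelled Smad7 libraries were above both knockout libraries, and wild type was lower still at 15.2 and 17.7 CPM. Adm, the peptide hormone adrenomedullin, had 0.306 and 0.210 CPM in the knockout and 7.87 and 8.17 CPM in the labelled Smad7 libraries (log2 fold 4.92, SE 0.28). Stc1, the hormone stanniocalcin, rose by 2.52, Car12, a carbonic anhydrase, by 2.42 and Egln3, an oxygen-sensing prolyl hydroxylase, by 2.08. Members chosen after their values were seen, for their promoters or known roles, were Pfkfb3, an activator of glycolysis (1.29), Bnip3, a mitophagy receptor (0.61), P4ha1, a collagen prolyl hydroxylase (1.13), and Vegfa, the angiogenic factor (1.71). Summed over the list, levels were 1436 to 1441 CPM in the knockout and 3283 to 3314 CPM in the labelled Smad7 libraries, with 678 to 693 CPM in wild type.

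Nearly all effectors with a promoter rose, so a contrast by motif is no test of the core. The 11 members with the core included 10 that rose, with a median log2 fold of 1.13, and the 6 without it all rose, with a median of 1.10. Genes of glycolysis and glucose uptake, many of which are also known to answer low oxygen, had 11 rises and 10 falls among 23, and the sign of that list's median depended on the scaling.

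Lipid and redox genes were divided. Of 25 antioxidant genes, many of them targets of Nrf2, 6 rose and 17 fell. Prdx6, a peroxiredoxin, had 77.2 and 75.2 CPM in the knockout and 33.7 and 32.5 CPM in the labelled Smad7 libraries (log2 fold −1.205, SE 0.056), and Sod2, the mitochondrial superoxide dismutase, fell (−1.09), while Hmox1, heme oxygenase, rose by 0.75. Among genes of fatty acid synthesis and storage 9 of 21 rose and 4 fell. The enzymes that commit carbon to new fatty acids, Acaca (−1.02), Fasn (−1.01) and Acly (−0.82), were those that fell most, and Lpin1, a phosphatase of lipid storage, rose by 1.42.

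Targets of p53, the damage-activated transcription factor, rose more often than they fell. Of 14 targets linked to growth arrest 10 rose and 2 fell, of 16 linked to cell death 11 rose and 4 fell, and of 20 linked to repair and metabolism 12 rose and 4 fell. The largest rise of the repair and metabolism list (3.02) has the value of Ddit4, named above among the hypoxia effectors. Fas, a death receptor, went from 0.408 and 0.210 CPM to 4.52 and 4.27 CPM (log2 fold 3.79, SE 0.32). Trp53inp1, a stress-induced regulator of p53, went from 168 and 147 CPM to 796 and 771 CPM (log2 fold 2.31, SE 0.045, 1.41 with the offsets). Cdkn1a, the cell cycle inhibitor p21, rose from 58.3 and 55.1 CPM to 107 and 111 CPM (log2 fold 0.95, SE 0.049), and Ccng1 and Plk2, known p53 targets of cell cycle control, rose by 1.45 and 1.49.

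Mdm2, which marks p53 for degradation and is itself a target, had 159 and 148 CPM in the knockout and 431 and 425 CPM in the labelled Smad7 libraries (log2 fold 1.48, SE 0.038). Trp53 messenger RNA fell at the same time (−0.90), as did that of Usp7, a deubiquitinase of both Mdm2 and p53 (−1.03). Polk, a translesion polymerase, rose by 1.88, while Tigar, a metabolic target, fell (−1.01). The Bcl2 family, which decides on release of cytochrome c from mitochondria, had 3 rises and 7 falls among 15. Its BH3-only members Pmaip1, or Noxa (1.59), and Hrk (0.99) rose, and the pore formers Bak1 (−0.83) and Bax (−0.57) fell. The libraries of the groups did not overlap for any gene of this paragraph. The share of all genes for which this holds was not counted, so it is not read as support.

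Genes of the integrated stress response moved in both directions. This pathway slows translation and raises Atf4, which with partners of the C/EBP family binds composite sites such as TTGCATCA. Of 25 genes of the response 10 rose (40%) and 12 fell (48%), against 37.8% and 36.8% of all genes tested. Windows of 4 member promoters that hold these letters are printed with them in capitals. They are at chr1:191183406-191183473 (minus strand) for Atf3, chr2:119351019-119351086 (plus strand) for Chac1, chr19:27216790-27216857 (plus strand) for Vldlr and chr7:126625543-126625610 (minus strand) for Nupr1, from RefSeq on GRCm38.p6.
Atf3: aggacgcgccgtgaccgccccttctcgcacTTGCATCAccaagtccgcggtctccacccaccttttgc
Chac1: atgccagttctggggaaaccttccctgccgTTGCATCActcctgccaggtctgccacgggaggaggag
Vldlr: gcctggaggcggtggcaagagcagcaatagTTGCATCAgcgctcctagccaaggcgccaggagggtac
Nupr1: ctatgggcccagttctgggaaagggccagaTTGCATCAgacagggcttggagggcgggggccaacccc

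These letters were in 5 of 21 member promoters (23.8%), against 0.617% of all promoters, 0.979% of genes that rose and 0.344% of genes that fell by 2-fold or more. Of the 5, 3 rose, none fell by edgeR's quasi-likelihood test and 2 did not pass it, with a median log2 fold of 1.75. Of the 16 without them 6 rose and 9 fell, with a median of −0.23. These letters were chosen for description after all counts were seen, and 5 promoters are few, so this contrast is no test of them. Atf3, a stress-induced repressor, went from 2.19 and 1.42 CPM to 18.5 and 16.01 CPM (log2 fold 3.24, SE 0.15). Chac1, which degrades glutathione, rose by 1.75 and Vldlr, a lipoprotein receptor, by 2.68. Nupr1, named for its promoter after its value was seen, had 12.5 and 13.6 CPM in the knockout and 12.3 and 15.6 CPM in the labelled Smad7 libraries and did not pass the test (0.11). Nupr1 passed it as higher under library size scaling (0.36) and with the offsets (0.34).

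Falling members of the response included an enzyme of serine synthesis, Psat1, which went from 385 and 367 CPM to 145 and 141 CPM (log2 fold −1.40, SE 0.039). Phgdh, the enzyme before it on that path, chosen after its value was seen, had a log2 fold of −1.07. In the unfolded protein response of the endoplasmic reticulum 5 of 21 genes rose and 13 fell. Hspa5, its chaperone BiP, had 731 and 727 CPM in the knockout and 327 and 313 CPM in the labelled Smad7 libraries (log2 fold −1.19, SE 0.036), and Xbp1, its spliced transcription factor, fell (−1.37). Herpud1, a degradation factor, rose by 1.05.

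Immediate early genes, which answer growth factors and stress within minutes, moved in both directions. Of 30 such genes and feedback inhibitors of the ERK kinase, 13 rose (43.3%) and 12 fell (40%). These shares are near the 37.8% and 36.8% of all genes tested. Fosl2, a component of the AP-1 dimer, went from 1.83 and 1.47 CPM to 10.7 and 9.47 CPM (log2 fold 2.59, SE 0.18), and Ier3, a regulator of cell survival, rose by 2.27. Jun, chosen after its value was seen, went from 9.18 and 8.31 CPM to 37.9 and 36.4 CPM (log2 fold 2.08, SE 0.089). Egr1, a zinc-finger factor induced through ERK, moved the other way, with 69.02 and 66.9 CPM in the knockout and 17.04 and 18.1 CPM in the labelled Smad7 libraries (log2 fold −1.95, SE 0.068), and Dusp4, a phosphatase of the feedback on ERK, fell (−1.47). Myc, a growth factor-induced transcription factor of ribosome genes, fell from 22.5 and 22.03 CPM to 14.7 and 14.4 CPM (log2 fold −0.62, SE 0.085), and wild type had 117 and 117 CPM.

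Genes of antigen presentation were divided, with more rises than falls. MHC class I molecules show peptides to T cells, the transporter made of Tap1 and Tap2 supplies the peptides, and Nlrc5 is the activator of these genes. Of 25 measured 15 rose and 6 fell (median 0.58). Their summed level was 291 to 297 CPM in the knockout and 323 to 333 CPM in the labelled Smad7 libraries, and 314 to 319 CPM in wild type. Nlrc5 had 0.765 and 1.26 CPM in the knockout and 17.2 and 15.4 CPM in the labelled Smad7 libraries (log2 fold 3.998, SE 0.18). Tap1 had 2.65 and 3.79 CPM in the knockout and 22.8 and 24.5 CPM in the labelled Smad7 libraries (log2 fold 2.88, SE 0.12), and B2m, the shared light chain, had 15.8 and 15.8 CPM in the knockout and 41.8 and 39.8 CPM in the labelled Smad7 libraries (log2 fold 1.36, SE 0.077).

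For these 3 genes both labelled Smad7 libraries exceeded both knockout libraries and both wild-type libraries. Tap2 rose by 1.71. Psmb10, a subunit of the immunoproteasome, fell (−1.11), and so did Irf1 (−0.75) and Psme2 (−0.75), which encode an interferon-induced factor and a proteasome activator. In the interferon response list 7 of 17 rose (41.2%) and 8 fell (47.1%). Among sensors of foreign nucleic acid and NF-kappaB 10 of 21 rose (47.6%) and 7 fell (33.3%). Of all genes tested 37.8% rose and 36.8% fell.

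Most germ line genes measured rose. Meiotic genes are kept silent in embryonic stem cells in part by repressors that bind the E-box CACGTG, and 13 of 20 members with a promoter hold these letters, which contain the core ACGTG named above. This is 65.0%, against 9.75% of all promoters, 8.81% of genes that rose and 10.2% of genes that fell by 2-fold or more. Windows of 5 are printed with 1 E-box in each in capitals, because most members with a promoter hold it. The Sycp3 window holds another E-box, left in lower case. They are at chr10:88459514-88459579 (plus strand) for Sycp3, chr3:102936159-102936224 (minus strand) for Sycp1, chr6:49395454-49395519 (plus strand) for Stk31, chr13:112652311-112652369 (minus strand) for Ddx4 and chr5:107331086-107331151 (plus strand) for Brdt, from RefSeq on GRCm38.p6.
Sycp3: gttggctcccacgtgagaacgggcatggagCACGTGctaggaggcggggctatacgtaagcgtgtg
Sycp1: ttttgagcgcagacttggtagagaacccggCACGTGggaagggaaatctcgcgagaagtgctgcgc
Stk31: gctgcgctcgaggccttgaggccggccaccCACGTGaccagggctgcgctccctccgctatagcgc
Ddx4: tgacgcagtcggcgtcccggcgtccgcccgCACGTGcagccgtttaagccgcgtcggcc
Brdt: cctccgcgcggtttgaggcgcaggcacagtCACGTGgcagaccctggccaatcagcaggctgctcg

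Of 22 germ line genes measured 18 rose and 3 fell (median 1.23, and 0.75 with the offsets). Their summed level was 306 to 307 CPM in the knockout and 532 to 544 CPM in the labelled Smad7 libraries. Among the 13 with the E-box 11 rose and 1 fell (median 1.23), and among the 7 without it 5 rose and 2 fell (median 0.42). The E-box too was chosen for description after all counts were seen, so this contrast is no test of it. Sycp1, of the synaptonemal complex that joins paired chromosomes, went from 5.56 and 4.15 CPM to 27.4 and 27.1 CPM (log2 fold 2.48, SE 0.11, 1.201 with the offsets). Wild type had 16.99 and 14.9 CPM for Sycp1, so its low values were those of the untransfected knockout.

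Sycp2, a lateral element of the same complex, went from 0.357 and 0.0526 CPM to 7.29 and 7.03 CPM (log2 fold 5.06, SE 0.30), on read counts of 7 and 1 against 113 and 130. With so few reads in the knockout its log2 fold was 6.89 without knockout replicate 1 and 4.28 without knockout replicate 2, and 3.82 with the offsets. Tex15, a factor of meiotic recombination and silencing, rose by 3.66 (2.37 with the offsets). Smc1b, a meiotic cohesin, rose by 1.95 (1.32 with the offsets). Members named for their promoters after their values were seen were Sycp3 (1.59, 0.56 with the offsets), Stk31, a testis kinase (1.38, 0.88 with the offsets), Ddx4, the Vasa helicase (1.24), and Brdt, a testis bromodomain protein (1.44). Tuba3a, a testis tubulin, fell (−1.67).

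Most neuronal membrane genes that passed the filter rose. Of 40 listed ion channels and neuronal membrane proteins 31 were measured, of which 25 rose and 2 fell (median 1.2, and 0.73 with the offsets). Low genes could pass the filter through the group where they are high, so these counts are not read as support. Cacna1e, a calcium channel pore subunit, had 0.510 and 1.16 CPM in the knockout and 9.49 and 11.7 CPM in the labelled Smad7 libraries (log2 fold 3.68, SE 0.21), and its log2 fold was 4.35 without knockout replicate 2 and 4.34 at equal depth. Ano3, of the anoctamin family, rose by 3.37 (2.60 with the offsets), and Cacna1b, the pore of an N-type calcium channel, by 2.75. Summed over the list, levels were 615 to 624 CPM in the knockout and 838 to 877 CPM in the labelled Smad7 libraries. Of 33 imprinted genes, which are expressed from 1 parental allele, 14 rose (42.4%) and 11 fell (33.3%). These shares are near the 37.8% and 36.8% of all genes tested, and the members named next were picked for the size of their change. Nap1l5, a retrogene within an intron of another gene, rose by 2.62 and Kcnq1ot1, the antisense RNA of the Kcnq1 domain, by 2.32 (1.01 with the offsets). Snhg14, the host RNA that runs antisense to Ube3a, rose by 3.41 (1.45 with the offsets). Without a stated strand setting, reads of these antisense RNAs and of the genes they overlap cannot be told apart.

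Cell cycle genes changed unequally. DNA replication genes fell in 38 of 42 cases and rose in 2 (median −0.55). At the G1 to S transition Rb1, the retinoblastoma repressor, rose by 2.11, and the partner cyclins split, with Ccne2 at 1.90 (0.85 with the offsets) and Ccne1 at −1.48. Ccnd2, a G1 cyclin, fell (−1.42).

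Genes of mitosis were split, with 16 rises and 26 falls among 46. Cenpe, a kinetochore motor, had 53.2 and 52.6 CPM in the knockout and 226 and 212 CPM in the labelled Smad7 libraries (log2 fold 2.05, SE 0.044), and wild type had 249 and 246 CPM. Plk1, a mitotic kinase chosen like the other falling genes here after values were seen, had 168 and 166 CPM in the knockout and 65.6 and 68.4 CPM in the labelled Smad7 libraries (log2 fold −1.31, SE 0.044), and wild type had 171 and 165 CPM. In the first the untransfected knockout was the low group of the 3, and in the second the labelled Smad7 libraries were. With Cenpe rose Knl1, a kinetochore scaffold (2.07, 0.84 with the offsets), Cenpf (1.86), the proliferation marker Mki67 (1.91) and Smc2, a condensin core (1.68, 0.91 with the offsets). With Plk1 fell Cdc20, an activator of the anaphase ligase (−1.23), Bub3, of the spindle checkpoint (−1.19), and Aurka, a spindle kinase (−1.16).

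These opposite groups differed in sequence composition. The 10 mitosis genes higher by 2-fold or more had a median transcript length of 6036.5 bases and GC contents of 37.7% to 46.6%. The 5 lower by 2-fold or more had a median length of 2199 bases and GC contents of 47.6% to 56.0%. Across the 46 genes the rank correlation of the log2 fold was −0.78 with GC content and 0.53 with length, against −0.16 and 0.24 across 13898 protein-coding genes. The correlation with GC content was also negative in the other 4 lists looked at: −0.53 for histone methyltransferases and demethylases, −0.47 for Polycomb complexes, −0.44 for chromatin remodellers and −0.38 for DNA replication. These are descriptions over genes that share the same libraries, and genes are not independent replicates.

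**Figure D3:**
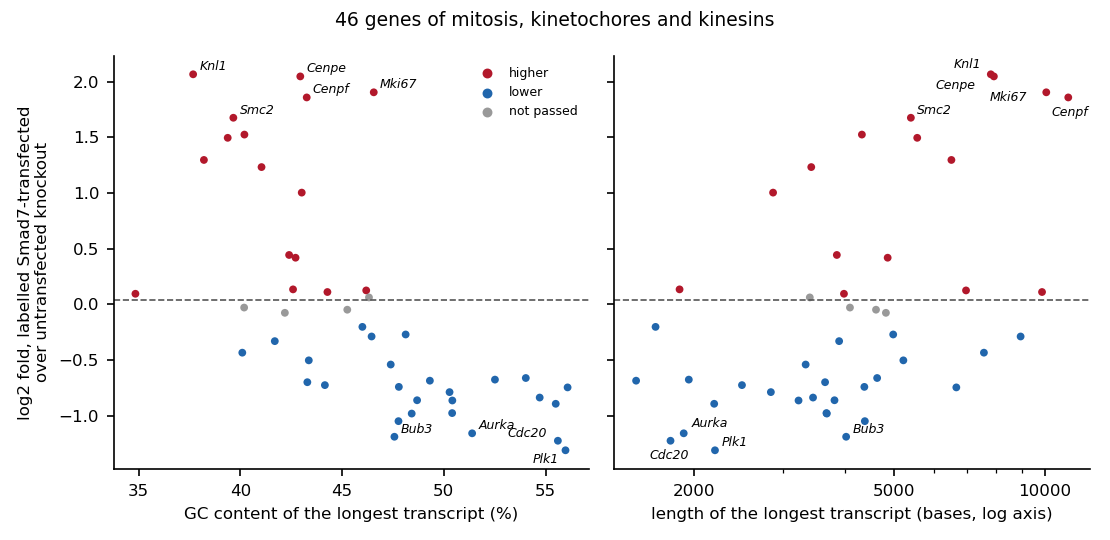
Log2 fold of 46 genes of mitosis, kinetochores and kinesins against GC content in percent (left) and transcript length in bases on a log axis (right), 1 point per gene coloured by its call, with a dashed line at the median of all genes. Knl1, Cenpe and Mki67 lie at low GC content and high fold, and Plk1 and Cdc20 at higher GC content and negative fold.

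Among chromatin genes, of 25 histone acetyltransferases and bromodomain readers 22 fell and 3 rose (median −0.38). Ep300, the gene of p300, had 239 and 233 CPM in the knockout and 209 and 222 CPM in the labelled Smad7 libraries (log2 fold −0.13, SE 0.039), a fall that became a rise of 0.12 when libraries were scaled by size alone. Its paralog Crebbp rose by 0.40, and with the offsets stood at 0.08, without a call. Hat1, which acetylates new histones, fell (−0.71), and so did Kat7, of the HBO1 complex (−0.70).

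Among remodellers 11 of 33 rose and 16 fell. Atrx, a remodeller of heterochromatin, went from 125 and 121 CPM to 577 and 558 CPM (log2 fold 2.21, SE 0.039, 1.14 with the offsets), and wild type had 629 and 616 CPM. Chd5 rose by 1.31 and Smarcb1, a core subunit of the BAF complex, fell (−0.92). In the Polycomb complexes 7 of 31 rose and 15 fell, with Bmi1, a PRC1 subunit, at 1.13 and Epop, a PRC2 partner of embryonic stem cells, at −1.35. The demethylase genes Kdm7a (1.89, 0.87 with the offsets) and Jmjd1c (1.25) rose in a list of 35 methyltransferases and demethylases. Of these 13 rose (37.1%) and 15 fell (42.9%), near the 37.8% and 36.8% of all genes tested. For these 3 lists the sign of the median depended on the scaling or the offsets.

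RNA processing genes were lower. SR proteins and hnRNPs, which guide splicing, fell in 32 of 39 cases and rose in 5 (median −0.51), with Hnrnpab at −1.64, while Srsf12 (2.09) and Ptbp3 (1.28, 0.29 with the offsets) rose. In the RNA exosome and nonsense-mediated decay 19 of 24 fell and 4 rose (median −0.62). Exosc4, an exosome ring subunit, fell (−1.56), and Upf2, a decay factor, rose by 1.30. Host genes of small nucleolar RNAs, whose spliced transcripts are known substrates of that decay, fell in 13 of 19 cases and rose in 4 (median −0.65), as Snhg5 did (−1.03).

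Noncoding RNAs of the nucleus rose in 11 of 14 cases and fell in 2 (median 0.61). Their summed level was 1491 and 1648 CPM in the knockout. In the labelled Smad7 libraries it was 2511 CPM in replicate 1 and 3564 CPM in replicate 2, so these libraries differed from each other. Xist, the RNA of X inactivation, had 14.8 and 13.1 CPM in the knockout and 118 and 113 CPM in the labelled Smad7 libraries (log2 fold 3.04, SE 0.065, 2.04 with the offsets), and wild type had 25.4 and 21.9 CPM. Ftx, a neighbour of Xist in the same X-linked region, rose by 1.42. The lowest log2 fold of the list was that of Rmrp, the RNA of RNase MRP (log2 fold −2.89, SE 2.0), which did not pass the test. Rmrp had 2.04 and 0.210 CPM in the knockout and 0.258 and 0.0541 CPM in the labelled Smad7 libraries, with knockout replicate 1 above the other 3, and its log2 fold was −0.51 without that library. Across the X chromosome 266 of 631 genes tested rose and 215 fell, with a median log2 fold of 0.10, within the range of the autosome medians, which ran from −0.10 on chromosome 19 to 0.25 on chromosome 13.

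By biotype, long noncoding classes stood above protein-coding genes. Of 484 lincRNAs 274 rose and 42 fell (median 0.80), and of 490 antisense RNAs 202 rose and 33 fell (median 0.52). Of 13898 protein-coding genes 5254 rose and 5596 fell (median −0.01). Processed pseudogenes, whose reads can belong to their parent genes, went the other way, with 123 of 870 higher and 456 lower (median −0.86). Within protein-coding genes the median log2 fold ran from 1.22 in the lowest decile of mean CPM to −0.48 in the highest. It was 0.71 in the decile of lowest GC content, and it ran from −0.40 in the shortest to 0.34 in the longest decile of transcript length. The mean CPM is made of the values compared, and low genes could pass the filter through the group where they are high, so the first range supports nothing. In the lowest decile of mean CPM 791 of 1390 protein-coding genes rose and 47 fell, and in the highest 266 of 1390 rose and 1044 fell. The biotypes were not compared at matched CPM, so their contrast is not read as a trait of noncoding RNAs. The part of biotype, level, GC content and length in the lists was not tested beyond the offsets given.

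**Figure D4:**
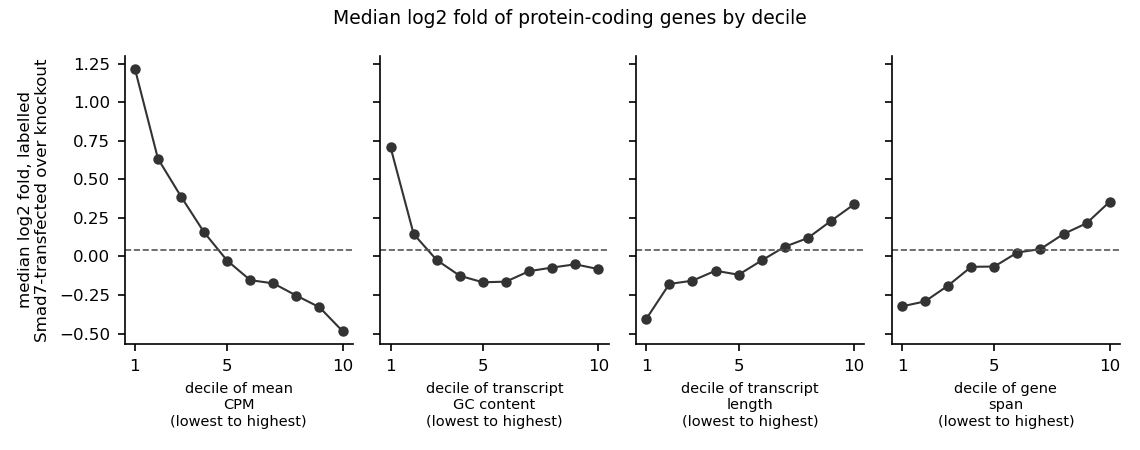
Median log2 fold of protein-coding genes in 10 equal groups ordered by mean CPM, GC content, transcript length and genomic span, each from lowest to highest, with a dashed line at the median of all genes. The median falls from 1.22 to −0.48 with mean CPM and rises from −0.40 to 0.34 with transcript length.

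Other transcription factor families held both directions. In the Myc network 2 of 12 rose and 9 fell: Mycn, the Myc paralog of embryonic stem cells, had 102 and 97.7 CPM in the knockout and 55.1 and 51.7 CPM in the labelled Smad7 libraries (log2 fold −0.91, SE 0.050), and Mga, a Max partner that works in a repressor of germ line genes, went from 322 and 319.8 CPM to 557 and 559 CPM (log2 fold 0.80, SE 0.036), a rise that was not called with the offsets (0.001). Wild type had 625 and 616 CPM for Mga. Among Krueppel-like factors 7 of 19 rose (36.8%) and 8 fell (42.1%), near the shares of all genes, with Klf12 at 1.55 and Klf15 at −1.36. The relatives Sp3 (1.23) and Sp1 (−0.29) moved in opposite directions, but Sp1 did not pass the test under library size scaling (−0.04) and Sp3 stood at 0.64 with the offsets.

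Signalling pathways beside TGF-beta moved in part. Among 16 Notch genes 9 rose and 3 fell, with the receptor Notch3 at 1.78 and the ligands Jag2 at 1.63 and Dll1 at 1.54. Among 18 FGF ligands and receptors 6 rose and 4 fell, and the receptor Fgfr3 rose by 2.52 where the ligand Fgf17 fell. Autophagy and lysosome genes rose in 20 of 36 cases and fell in 14. Rb1cc1, of the kinase complex that starts autophagy, rose by 2.00 (1.00 with the offsets) and Lamp2, a lysosomal membrane protein, by 1.27 (0.51 with the offsets), while Tfeb, the regulator of lysosomal genes, fell (−1.21).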

How the data were processed

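The authors deposited a table of raw counts per gene for the whole series. Per the submitters' processing notes, reads were aligned with STAR and counted with featureCounts 1.6.3, with mm10 and GRCm38 as builds. Per the labels' protocols, the libraries were poly(A)-selected and made with a TruSeq kit from TRIzol RNA. The sources used here do not give the annotation release, strand setting or treatment of multiply mapped reads. Column names were matched to sample titles, and 2 columns matched no sample and were not used. The transfected columns were matched on the name Smad7 and the replicate number in the title. The descriptions of these samples end in R1 and R2, which are also the names of the unmatched columns, and the labels do not settle this further.

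From these counts edgeR 4.0.16 (R 4.3.3) filtered genes with filterByExpr, leaving 17342 of 55292 features, scaled by TMM and fitted all 6 matched libraries with robust quasi-likelihood dispersions on 3 residual degrees of freedom. Genes were called at a Benjamini-Hochberg adjusted p under 0.05, and calls of 2-fold or more were counted separately. The script was tested on simulated data in which far fewer genes were changed than were called here. That test does not cover a difference as broad as this one. DESeq2 1.42.0, other scalings, filters, offsets (mgcv 1.9.3, on GENCODE lengths and GC content of 97.8% of genes), glmTreat (a test against a minimum fold of 1.5), a replicate block and leaving out each library were alternatives. Thinning to equal depth was added after seeing the data.

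The comparison and its 72 gene lists were chosen with earlier results of these data known. Genes that could be named were the 20 greatest rises and falls. These had a mean of at least 5 CPM, libraries that did not overlap between the groups and no clone name. Those of each list were the 5 largest changes, with up to 3 against the majority, or any member where at most 20 were measured. Not all of these are named. Other genes are marked as chosen after their values were seen. Promoters (250 bases before the start) were searched on both strands for 19 motifs, of which the 3 described were chosen after all counts were seen. The other 16 were the cAMP response element TGACGTCA, the CCAAT box, the TATA box TATAAA, the AP-1 site TGANTCA, the E2F site TTTCGCGC, the Stat site TTCNNNGAA, the heat shock site TTCNNGAA, the Smad palindrome GTCTAGAC, the GC box GGGCGG, the Ets site CCGGAAG, the YY1 site ATGGCGG and its longer form, the Atf4 site ATTGCATCA, the interferon-stimulated element core, and the Nrf1 and Kaiso-type palindromes.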

Additional observations from a re-analysis of the deposited data

How the results depend on the processing

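Scaling moved the balance of rises and falls: with library size scaling 587 genes were lower by 2-fold or more, against 1188. Filtering genes at 1 CPM in 4 libraries, which leaves fewer low genes, gave 1809 genes higher and 610 lower by 2-fold or more. Tested against a minimum fold of 1.5, 3579 genes were higher and 2425 lower. Leaving out each library in turn gave 5726 to 6625 genes higher and 5941 to 6572 lower, and 3027 to 3468 higher and 1130 to 1312 lower by 2-fold or more. Where that left 1 library in a group, it was assumed to vary like the other groups. A replicate block gave 6555 genes higher and 6427 lower, but deviations of same-numbered libraries correlated at 0.037 between the compared groups, so the numbers were not read as pairing. With the offsets the median of the mitochondrially encoded messenger RNAs was −0.17, and with library size scaling Ep300 stood at 0.12 and Mxi1 at 0.011. The cause was not tested in these cases. Of 138 counts of list members higher or lower, 39 moved by over 1.5 times under library size scaling, 22 with the offsets and 99 against the minimum fold. Of 206 genes named, 178 kept their direction and side of the threshold under every one of the 16 alternatives that gave them a value, and 14 had none with the filter at 1 CPM and 1 had none in a fit of only the 4 libraries. With 2 libraries a group and no mock transfection, neither the spread between cultures nor the effect of transfection alone can be measured.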

Other observations

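Gene families grouped by symbol after their values were seen add a few patterns, given as values. Of 30 collagen genes measured 25 rose and 1 fell, 20 of them rising by 2-fold or more, with a median log2 fold of 1.48. Of 57 genes with symbols that start with Kcn, mostly potassium channel genes but with the noncoding Kcnq1ot1 among them, 33 rose and 8 fell (median 0.84). Of 13 axonemal dynein heavy chains, the motors of motile cilia, 8 rose and 0 fell (median 1.03), and of 24 protocadherins 11 rose and 0 fell (median 0.55). Of 346 genes named Zfp with a number 168 rose and 103 fell (median 0.24). Of 57 ribosomal protein pseudogenes 40 fell, 31 of them by 2-fold or more, and 4 rose (median −1.06), the direction of the ribosomal protein genes whose reads they can share. All these calls are from edgeR's quasi-likelihood test, against 37.8% of all genes higher and 36.8% lower. Low genes could pass the filter through the group where they are high, so counts of rises in families of low genes are not read as support.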
